A study of Mus musculus with 48 samples.

Results

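The genes described here were 10 members of the cell division machinery and its brakes, namely Wee1, Cdkn1a, Cdk1, Cdk2, Cks1b, Cks2, Ccne2, Ccng1, Ccnd1 and Ing1. They were chosen by gene symbol in the array's annotation, with every probe set kept, which gave 22 of the 45101 probe sets and 10 of the 18194 genes with a symbol. The livers came from male C57BL/6J mice, 6 weeks old, which had spent 1 week on 12 h of light and 12 h of darkness and were then moved to constant darkness. Each hour from circadian time (CT) 18 to CT65, the livers of 3 to 5 mice were pooled, and the 48 pools were each hybridised to 1 Affymetrix mouse expression array. CT0 marks subjective dawn and CT12 dusk. The pools formed 1 group with no treatment or genotype contrast, so the comparisons were between hours, between periods of 24, 12 and 8 h, and between the first cycle (CT18 to CT41) and the second (CT42 to CT65). Different mice were killed at each hour, each hour of a cycle had 1 pool, and p-values therefore rest on the scatter of hourly pools about a fitted curve.

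A dividing cell is moved from phase to phase by cyclin-dependent kinases (CDKs), which are active only when bound to a cyclin. Brakes act on them in different ways: Wee1 adds an inhibitory phosphate to the CDK, and p21 (the product of Cdkn1a) binds cyclin-CDK complexes. The small Cks proteins are not brakes of this kind. They dock on CDKs and help choose their substrates and the inhibitors that are destroyed. Adult liver is mostly a resting tissue in which few hepatocytes divide, yet its circadian clock is known to act on several of these genes, with Wee1 and Cdkn1a as the textbook cases.

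Values are the deposited intensities on a linear scale, with log2 of them used in every fit, and 100 was taken as a level near background, under which the mean of 49.8% of all probe sets lay. The median intensity of an array ran from 95.2 to 110.9. The pools of CT60 to CT65 stood slightly apart, with a median correlation to the other arrays of 0.984 to 0.990 against 0.989 to 0.995 for the other 42, and results that rest on them are given with and without them. All 5 hepatocyte markers (Alb, Ttr, Apob, Fgb and Cyp2e1) had medians of at least 301383. Of 8 measured markers of dividing cells, 5 had medians under 100, and the others (Mki67, Top2a and Cdc20) had medians of 102.3 to 126.05. None was called rhythmic by both tests described next. By limma 4 of the 8 had a 24 h component, where 52.7% of all genes did. Among markers of other liver cells, 4 of 6 endothelial, 2 of 6 Kupffer and 2 of 5 stellate genes were called with a 24 h period. Of all genes 14.2% were. Of the hepatocyte markers 1 of 5 was called, and none of the measured bile duct, lymphocyte, neutrophil and erythroid markers was. The summed intensity of the endothelial list ran from 19786 at CT27 to 31552 at CT22, that of the Kupffer list from 31766 at CT27 to 83912 at CT54 and that of the stellate list from 10886 at CT62 to 36466 at CT27. The endothelial median in CT60 to CT65 differed by -0.52 on the log2 scale from that 24 h earlier. The part of these cells in the members' rhythms was not tested, and in a whole liver fewer cells of a type and less RNA per cell cannot be told apart.

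A probe set was called rhythmic when both Fisher's G-test and a cosine fit gave a q-value under 0.05, with the period taken from the cosine fit. Of the 22 member probe sets, 8 were called with a period near 24 h, against 9.98% of all probe sets on the array. They were both sets of Wee1, both of Cdkn1a, both of Cks2, and the only sets of Cdk1 and Ccne2. A period near 12 h was called for 5 member probe sets, against a background of 0.769% on the array, and these were 1 of Cdk2, both of Cks1b, 1 of Ccng1 and 1 of Ing1. One gene, Ccng1, had 1 probe set in the 8 h window, where the background was 0.268%. By gene, 5 of 10 members were in the 24 h class against 14.2% of all genes, 4 were in the 12 h class against 1.14%, and Ccnd1 was in neither. Because the members were chosen with their periods known, these shares describe the choice of genes and support nothing about the cell cycle as a whole.

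Amplitude and peak time came from a harmonic limma model (trend, with cosine and sine terms at 24, 12 and 8 h), in which the 24 h amplitude is the height of the curve above its mean in log2 units. In that fit 16 of the 22 probe sets had a 24 h component, where 47.4% of all probe sets did. The array count of 21375 depended on the scaling, with 10553 under quantile normalization and 9875 without CT60 to CT65. In these settings 15 and 14 member sets passed. Each setting lost Cdk2 1447617_at and Ing1 1454534_at, which were under 100 in all 48 pools. A 12 h component was present in 9, against 4.89%, and an 8 h component in 2, against 1.35%. The 24 h class and the 12 h class held different genes, but a gene of either class could have a limma component at the other period. Cks1b and Ing1, called with a 12 h period, also had a 24 h component, and Wee1 and Cdkn1a, called with a 24 h period, also had a 12 h component. For Cks1b and Wee1 this second component passed in the brighter probe set alone.

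Wee1 encodes the kinase that holds CDK1 inactive until a cell is ready for mitosis, and it had the largest 24 h amplitude of the 10 members. Its brighter probe set (1416773_at) was lowest at 417.3 at CT27, had a median of 1509 over the 48 pools and was highest at 4752.9 at CT34. Intensity was high from late subjective day into early night, at 4474.3 at CT33 and 4359.4 at CT36 in the first cycle and 3636.3 at CT56 and 4179.9 at CT58 in the second. It was low from late night to the middle of the subjective day, with 417.9 at CT26 and 422.3 at CT28, and 556.0 at CT50 and 516.4 at CT51. The rise was steep, since Wee1 went from 1178.5 at CT31 to 4474.3 at CT33, while the fall took most of the night.

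The 24 h amplitude of Wee1 was 1.42 ± 0.085 (SE), a fitted peak-to-trough ratio of 7.15, with the peak at CT13.0 ± 0.21 h (limma adjusted p = 2.15e-16). The other Wee1 probe set (1416774_at) had an amplitude of 1.22 ± 0.11 with a peak at CT13.4 ± 0.33 h, and the pair correlated at r = 0.917 over the 48 pools after the trend was removed. The peak fell at CT13.0 in the first cycle alone and at CT12.9 in the second. In the brighter set a 12 h component of 0.30 ± 0.080 barely passed the test (adjusted p = 0.0454) and did not pass without CT60 to CT65 (adjusted p = 0.264). That of the other set, 0.22 ± 0.11, did not pass (adjusted p = 0.606). In 1 pool, CT55, Wee1 broke its rise with 551.2 between 1270.1 at CT54 and 3636.3 at CT56, and the other probe set dipped in the same pool, to 460.2.

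Cdkn1a encodes p21, which blocks cyclin-CDK complexes and is a classic target of p53. Its brighter probe set (1424638_at) was near background for most of the 2 days, with a median of 109.55, a lowest value of 81.1 at CT32 and a highest of 382.9 at CT23. Above that floor stood 1 pulse per cycle, in the second part of the subjective night and, in the first cycle, past dawn. In the first cycle it covered CT20 to CT26 with intensities of 184.8 to 382.9, and in the second it covered CT44 to CT48 with 131.3 to 222.5. The other probe set (1421679_a_at) was under 100 in 37 of the 48 pools and rose from 69.9 at CT18 to 696.0 at CT21 and 660.1 at CT23, back to 67.7 at CT27.

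The fitted 24 h amplitude of Cdkn1a was 0.42 ± 0.057 with a peak at CT22.0 ± 0.49 h (adjusted p = 7.68e-07), and that of the dimmer probe set was 0.79 ± 0.12 with a peak at CT22.0 ± 0.54 h. Both also carried a 12 h component, of 0.27 ± 0.053 (adjusted p = 0.00320) and 0.53 ± 0.11 (adjusted p = 0.00545). The plot of Cdkn1a by cycle shows 1 pulse a day on a flat floor and no evening pulse. Mean log2 intensity of the brighter set was 7.43 ± 0.60 (SD, n = 12 pools) between CT18 and CT23 of either cycle, against 6.64 ± 0.11 between CT6 and CT11.

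**Figure D1:**
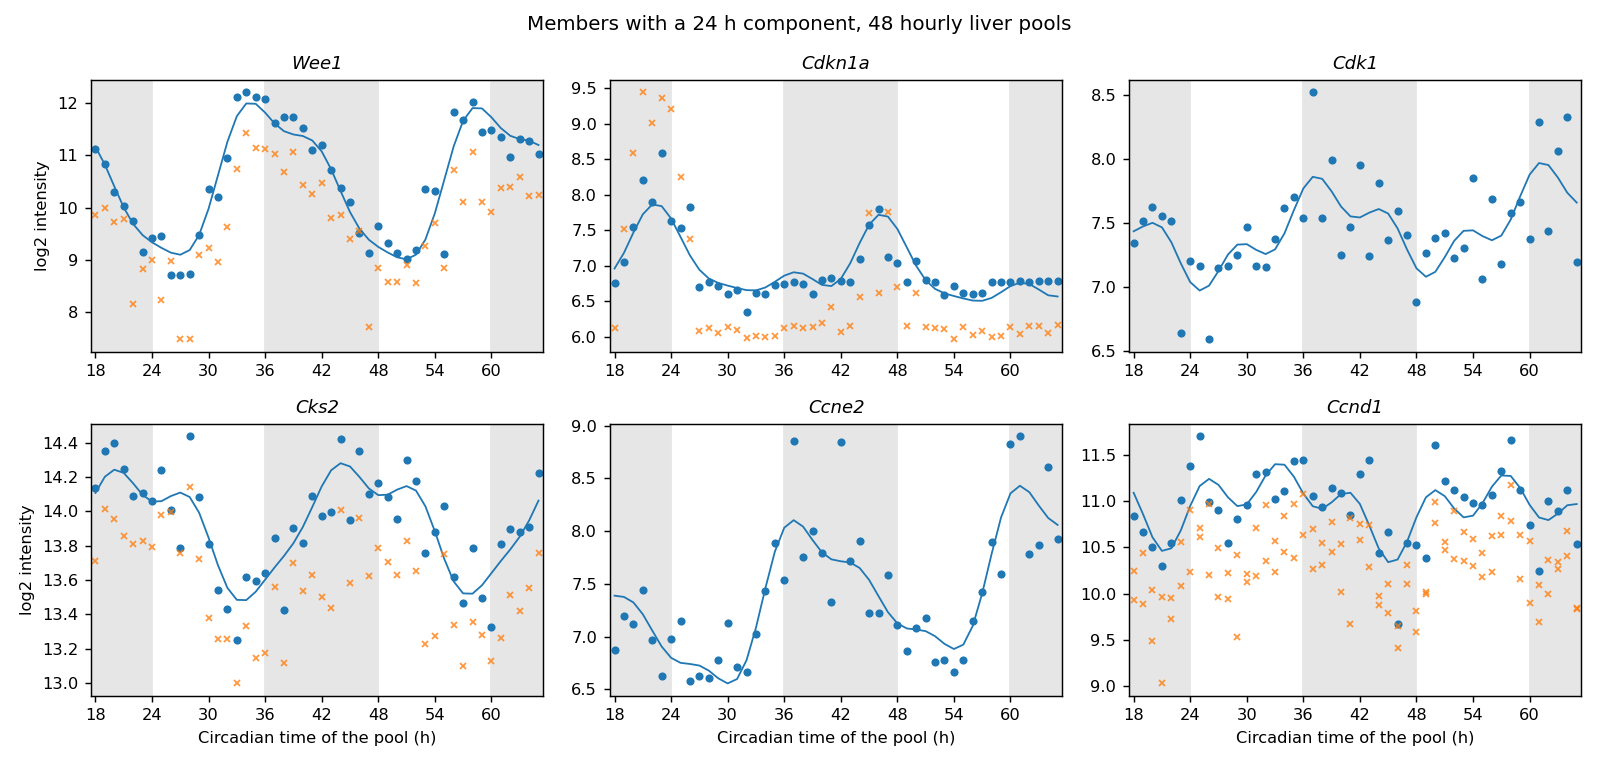
Log2 intensity (vertical axes) against circadian time in hours (horizontal axes) for Wee1, Cdkn1a, Cdk1, Cks2, Ccne2 and Ccnd1 in 48 hourly liver pools, with circles for the probe set of highest mean, crosses for the others, a line for the harmonic model of the circles, and grey for subjective night. Wee1 is high around CT34 and CT58, Cdkn1a forms a pulse around CT23 and CT46, and both Ccne2 and Cdk1 are high at CT37 and CT61.

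Cdkn1a was the member whose daily course differed between the cycles on log2 values. The limma interaction of cycle with the 24 and 12 h pairs passed for both of its probe sets, 2 of the 22, where 5.03% of all probe sets passed. For 1421679_a_at the adjusted p was 1.27e-05, and the 24 h amplitude was 1.71 ± 0.15 in the first cycle but 0.60 ± 0.19 in the second. The first pulse held intensities of 383.2 to 696.0 between CT20 and CT24, and CT44 to CT48 held 94.1, 213.7, 98.3, 216.0 and 104.2. No pool of the second pulse reached the lowest of those 5 pools in the first. At its edges the first pulse was lower, with 182.7 at CT19, 303.9 at CT25 and 165.5 at CT26.

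The brighter probe set of Cdkn1a gave an interaction adjusted p of 0.00704, with amplitudes of 0.80 ± 0.14 and 0.41 ± 0.094. On linear values Wee1 1416774_at passed as well, and among the brighter probe sets alone, which leave out 1421679_a_at, Ccnd1 1417419_at did. Without CT60 to CT65 the brighter Cdkn1a set no longer passed (adjusted p = 0.448), while 1421679_a_at still did (adjusted p = 0.00105) as 1 of 2 probe sets on the whole array. The times of the pulses were alike, with a fitted peak at CT22.4 ± 0.18 h and CT22.7 ± 0.61 h for the dimmer set. The mean of that set, under 100 in most pools, was lower in the second cycle by a log2 difference of -0.62 ± 0.18 (adjusted p = 0.00679), which did not pass without the block of hours. The pools held different mice, and whether the first pulse belongs to the hours since the lights went off or to the mice in those pools cannot be told apart.

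**Figure D2:**
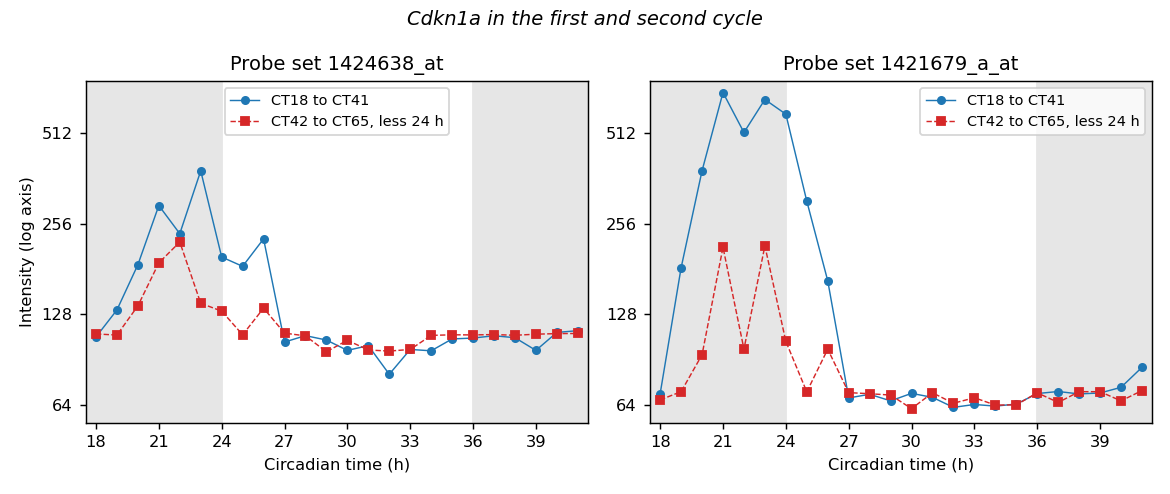
Intensity of the Cdkn1a probe sets on a log axis (vertical) against circadian time in hours (horizontal), with circles for CT18 to CT41 and squares for CT42 to CT65 moved back by 24 h, and grey for subjective night. In the right panel the first pulse reaches 696.0 and the second 216.0, and outside the pulses the cycles overlie each other at about 70.4, the median.

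Cdk1 encodes the kinase that starts mitosis. Its single probe set (1448314_at) was dim, with a lowest value of 96.3 at CT26, a median of 170.75 and a highest of 367.4 at CT37. The high pools were scattered in the subjective night, at 254.6 (CT39) and 247.7 (CT42), and again at 312.1 (CT61), 267.0 (CT63) and 321.5 (CT64), with pools beside them as low as 151.6 at CT43 and 146.5 at CT65. The 24 h amplitude was 0.29 ± 0.065 with the peak at CT14.5 ± 0.85 h (adjusted p = 0.00215). Without CT60 to CT65 it was 0.30 ± 0.065 with the peak at CT14.4 ± 0.76 h (adjusted p = 0.00178). A 12 h component was near 0, at 0.02 ± 0.063. The call of Cdk1 by both tests was the weakest of the 24 h class, with a G-test q of 0.0170, and it was lost with Benjamini-Hochberg adjustment and with the trend removed before the G-test.

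Cdk2 encodes the kinase that works with cyclins E and A around DNA synthesis, and it followed a 12 h course. Probe set 1416873_a_at was lowest at 551.9 at CT62, had a median of 1036.85 and was highest at 1484.6 at CT36. Its crests came in the middle to late part of both the subjective day and the subjective night, with 1465.7 at CT33, 1359.3 at CT46 and 1452.7 at CT58. Its troughs came in the hours after dawn and dusk, with 702.8 at CT28, 720.4 at CT39 and 604.6 at CT49. The 12 h amplitude was 0.35 ± 0.051, a fitted ratio of 1.62, with peaks at CT8.71 ± 0.27 h and 12 h later (adjusted p = 3.37e-05), while the 24 h amplitude was 0.09 ± 0.052 (adjusted p = 0.281). The 12 h amplitude was 0.29 ± 0.093 in the first cycle alone (adjusted p = 0.410) and 0.38 ± 0.091 in the second (adjusted p = 0.107), and neither passed. Intensity in CT60 to CT65 was lower by a log2 difference of -0.46 than 24 h earlier, and without those pools the 12 h component had an amplitude of 0.29 ± 0.047 (adjusted p = 4.69e-04). The other Cdk2 set (1447617_at) was under 100 in all 48 pools, between 69.2 and 91.3.

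The Cks genes are paralogs whose small products dock on CDKs, and Cks1b is also needed by the ligase that destroys the inhibitor p27. They followed different periods. Cks2 (1417458_s_at) was lowest at 9759.3 at CT33, had a median of 15867.7 and was highest at 22196.9 at CT28. It was high in the late night, with 21632.1 at CT20 and 21959.3 at CT44, and low near dusk, with 11054.8 at CT32 and 10279.5 at CT60. The 24 h amplitude was 0.34 ± 0.039 with the peak at CT22.3 ± 0.41 h (adjusted p = 1.84e-08), and the other set (1417457_at) had 0.30 ± 0.041 and CT22.6 ± 0.48 h. The suffix of the brighter set marks probes that can match transcripts of more than a single gene, and the other set, without that suffix, correlated with it at r = 0.915.

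Cks1b rose both at dawn and at dusk. Its brighter set (1416698_a_at) was lowest at 6608.0 at CT46, had a median of 13001.9 and was highest at 28402.6 at CT50. The dawn crests were tall and short, with 22204.8, 24686.8 and 22571.4 at CT24, CT25 and CT26, and 28402.6 at CT50 between 16638.3 at CT49 and 18409.4 at CT51. The dusk crests were lower and broader, with 20223.6 at CT34 and 17536.0 at CT39 at their ends in the first cycle, and 20117.8 at CT58 and 18933.3 at CT64 in the second. The deepest troughs came before dawn, with 7062.8 at CT20 and 6608.0 at CT46, and the midday troughs were shallower, with 11060.8 at CT30 and 10043.8 at CT54.

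The 12 h amplitude of Cks1b was 0.51 ± 0.047, the largest 12 h amplitude among the brightest probe sets of the 10 genes, with a fitted ratio of 2.02 and peaks at CT1.37 ± 0.18 h and 12 h later (adjusted p = 7.86e-09). The 24 h amplitude of 0.30 ± 0.049 (adjusted p = 1.99e-05) and the 8 h amplitude of 0.27 ± 0.047 (adjusted p = 0.00291) describe the unequal crests and troughs. The dimmer set (1448441_at) had a 12 h amplitude of 0.46 ± 0.072 and peaked at CT1.33 ± 0.30 h. Neither its 24 h amplitude of 0.18 ± 0.072 (adjusted p = 0.102) nor its 8 h amplitude of 0.21 ± 0.071 (adjusted p = 0.263) passed. In both cycles alone the 12 h amplitude of the brighter set was 0.58 ± 0.058 and 0.50 ± 0.099.

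**Figure D3:**
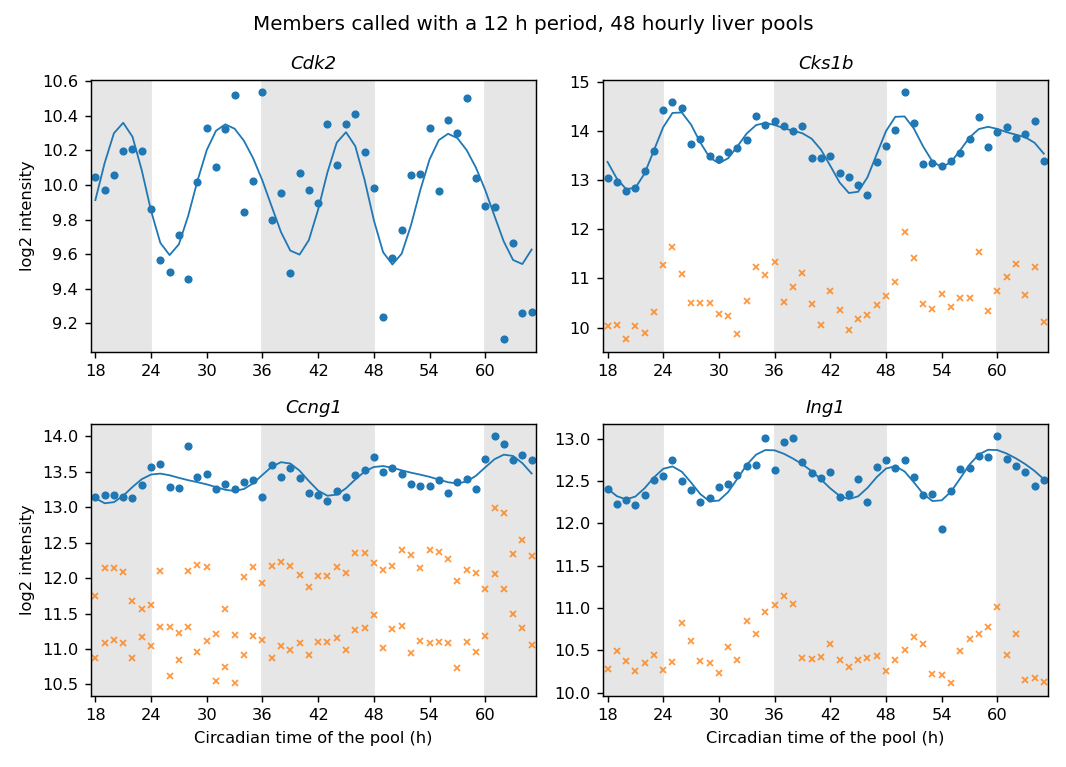
Log2 intensity (vertical axes) against circadian time in hours (horizontal axes) for Cdk2, Cks1b, Ccng1 and Ing1 in 48 hourly liver pools, with circles for the probe set of highest mean, crosses for other probe sets with a median of at least 100, a line for the fit to the circles, and grey for subjective night. Cks1b, Ccng1 and Ing1 crest near dawn and dusk, while Cdk2 has its troughs in the hours after dawn and dusk and its highest pool at CT36.

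Ccne2 encodes cyclin E2, a partner of CDK2 at the start of DNA synthesis. Its single probe set (1422535_at) was lowest at 95.3 at CT26, had a median of 148.15 and was highest at 477.5 at CT61. It was near background for most of the subjective day, with 97.6 at CT28 and 101.1 at CT54, began to rise late in the day, with 237.4 at CT35 and 238.3 at CT58, and was highest in the night, with 463.3 at CT37, 459.5 at CT42, 454.4 at CT60 and 390.7 at CT64. The 24 h amplitude was 0.62 ± 0.076, a fitted ratio of 2.38, with the peak at CT15.4 ± 0.49 h (adjusted p = 7.66e-08). It was the largest 24 h amplitude after that of Wee1 among the brightest probe sets. The mean was higher in the second cycle by 0.36 ± 0.11 on the log2 scale (adjusted p = 0.00897), and without CT60 to CT65 the difference was 0.33 and did not pass (adjusted p = 0.0506).

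Cdk1 and Ccne2 shared some of their high pools. At CT37 the intensities were 367.4 and 463.3, at CT61 they were 312.1 and 477.5, and at CT64 they were 321.5 and 390.7. Other pools differed, since at CT60 Cdk1 was at 165.6 and Ccne2 at 454.4, and at CT54 they were at 230.8 and 101.1. Over the 48 pools, after the trend was removed, the correlation was r = 0.670. It was not computed without CT60 to CT65, to which CT61 and CT64 belong. These points share arrays and pooled livers, so single mice within a pool could raise both, and this was not tested. Of the dividing-cell markers, Mki67 ran from 108.4 to 224.6 and Cdc20 from 90.4 to 276.2 over the 48 pools, while Plk1, Birc5 and Ccna2 stayed under 100 throughout.

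Ccng1 encodes cyclin G1, a p53 target that recruits a phosphatase. Its brightest set (1420827_a_at) was lowest at 8668.3 at CT43, had a median of 10614.8 and was highest at 16392.1 at CT61. High pools lay just after dawn and dusk, with 12546.1 at CT25, 12353.3 at CT37 and 13402.3 at CT48, apart from 14882.0 at CT28, the highest of the first cycle, and low pools before them, with 8954.2 at CT22, 9066.6 at CT36 and 9021.1 at CT45. The 12 h amplitude was 0.18 ± 0.032, a fitted ratio of 1.28, with peaks at CT1.83 ± 0.34 h and 12 h later (adjusted p = 8.10e-04). All 6 pools of CT60 to CT65 were high, between 13026.9 and 16392.1, and without them the 12 h amplitude was 0.14 ± 0.030 (adjusted p = 0.0103). That amplitude was 0.16 ± 0.064 in the first cycle alone (adjusted p = 0.731) and 0.22 ± 0.042 in the second (adjusted p = 0.0417).

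The other Ccng1 sets behaved differently, and neither had a 12 h component by limma. The 12 h amplitudes were 0.06 ± 0.056 for 1450016_at (adjusted p = 0.973) and 0.13 ± 0.045 for 1450017_at (adjusted p = 0.260). Set 1450016_at was the one called in the 8 h window, with a cosine period of 8.4 h but a G-test period of 48 h, and it ran from 2340.3 at CT33 to 8151.7 at CT61. Its limma 8 h amplitude was 0.18 ± 0.055 (adjusted p = 0.165), and the call was lost on linear values, with quantile normalization, with Benjamini-Hochberg adjustment and with the trend removed. It correlated with the brightest set at r = 0.357. Sets 1450016_at and 1450017_at were higher in the second cycle by 0.41 ± 0.080 and 0.24 ± 0.071 on the log2 scale, and without CT60 to CT65 the first still was (0.41, adjusted p = 0.0136) and the other did not pass (0.15, adjusted p = 0.0737). Which of the sets follows the Ccng1 messenger best was not tested.

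Ccnd1 encodes cyclin D1, which carries growth signals to CDK4 and CDK6. Its brightest set (1417420_at) was lowest at 816.1 at CT46, had a median of 2040.8 and was highest at 3323.6 at CT25. It was high after dawn, with 3323.6 at CT25 and 3111.2 at CT50, and toward or at dusk, with 2783.1 at CT36 and 3233.8 at CT58. High pools also lay in the night, with 2514.6 at CT42 and 2790.5 at CT43. It was low before dawn, with 1258.0 at CT21 and 816.1 at CT46. All 3 probe sets had a 24 h component in limma, with amplitudes of 0.27 ± 0.072, 0.30 ± 0.063 and 0.23 ± 0.064 and peaks at CT9.19, CT9.47 and CT8.66, and adjusted p of 0.00991, 0.00112 and 0.0135. None was called by both tests, since the G-test q ran from 0.107 to 0.332. The best cosine period was 8.4 h for the brightest set, 22.7 h for the next (1448698_at) and 8.3 h for the dimmest, and the 3 sets correlated at r = 0.810 to 0.878. Among the brighter probe sets alone, 1448698_at was called with a 24 h period.

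Ing1 encodes a chromatin reader of the Sin3 and histone deacetylase complex that works with p53 to restrain growth. Its brightest set (1416860_s_at) was lowest at 3905.8 at CT54, had a median of 5995.1 and was highest at 8353.1 at CT60. It crested at dusk, with 8265.4 at CT35, 8259.1 at CT38 and 8353.1 at CT60, and less at dawn, with 6867.9 at CT25 and 6884.4 at CT50. The 12 h amplitude was 0.21 ± 0.026, a fitted ratio of 1.34, with peaks at CT0.39 ± 0.24 h and 12 h later (adjusted p = 1.89e-06), and the 24 h amplitude was 0.16 ± 0.028 with a peak at CT12.2 ± 0.63 h (adjusted p = 1.24e-04). The brightest set has the same suffix as that of Cks2, for probes that can match transcripts of more than a single gene. The dimmer 1448496_a_at, without that suffix, had amplitudes of 0.19 ± 0.032 and 0.21 ± 0.034 at 12 and 24 h. It correlated with the brightest set at r = 0.667. Its 12 h component passed in limma (adjusted p = 3.12e-04), but both tests did not call it (G-test q = 0.111). With quantile normalization, and among the brighter probe sets alone, it was called with a 12 h period. The remaining Ing1 sets, 1454534_at and 1433267_at, were under 100 in all 48 pools and varied by ratios of 1.17 and 1.04 from lowest to highest.

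The classes were called on these same 48 pools, and the members were chosen with their periods known. The amplitude differences that follow are therefore a description and do not test the classes. The difference between the 24 h and 12 h amplitudes was above 0 in the brightest set of every 24 h member and below 0 in that of every 12 h member, though not every interval cleared 0 and that of Ing1 turned to 0.04 in the first cycle alone. It was 1.11 (95% interval 0.87 to 1.36) for Wee1, 0.44 (0.22 to 0.65) for Ccne2, 0.28 (0.10 to 0.45) for Cdk1 and 0.25 (0.14 to 0.36) for Cks2, in log2 units. It was -0.26 (-0.41 to -0.11) for Cdk2, -0.20 (-0.34 to -0.07) for Cks1b and -0.16 (-0.25 to -0.07) for Ccng1. For Cdkn1a the interval of the brighter set only just cleared 0, at 0.16 (0.00 to 0.31), and that of the dimmer set spanned 0, at 0.26 (-0.07 to 0.58). For Ing1 the interval also spanned 0, at -0.05 (-0.13 to 0.02), so that Ing1 carried both periods at amplitudes that were not told apart. For Ccnd1 it was 0.18 (-0.01 to 0.38) in the brightest set and 0.20 (0.03 to 0.37) in 1448698_at.

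**Figure D4:**
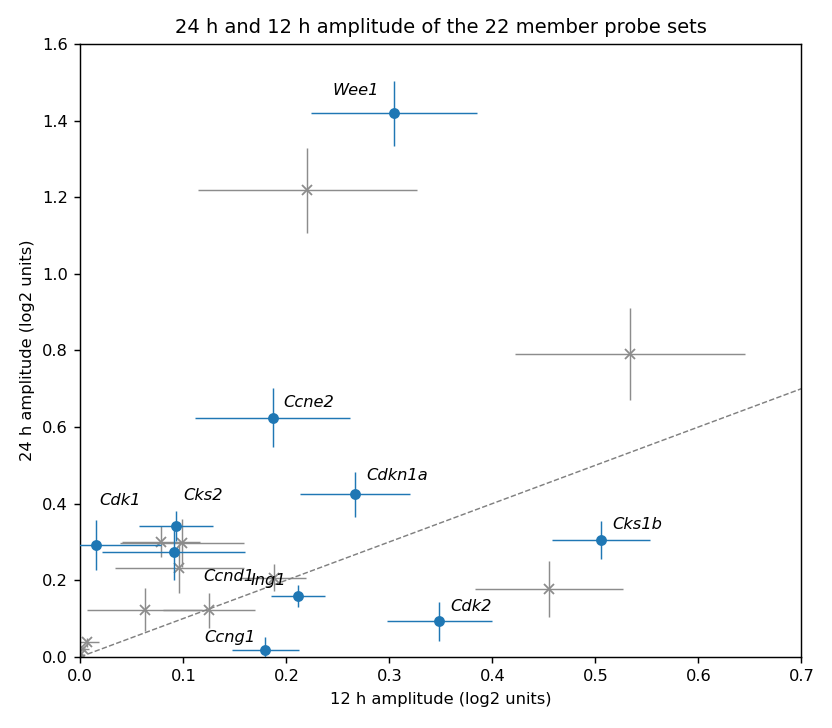
The 24 h amplitude (vertical axis) against the 12 h amplitude (horizontal axis), both in log2 units, of the 22 member probe sets, with blue circles for the brightest set of each gene, grey crosses for the others, bars of ± 1 SE, and a dashed line where the amplitudes are equal. Wee1 and Ccne2 lie far above the line, Cks1b, Cdk2 and Ccng1 lie below it, and Ing1 lies close to it.

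Peak times were set against clock genes as markers of time. In these pools Nr1d1 peaked at CT6.63, Dbp at CT10.2, Per1 at CT11.2, Per2 at CT13.9, Cry1 at CT19.7, Arntl at CT22.3 and Npas2 at CT0.64. Each of the 8 members with a 24 h component in its brightest set was compared with each of the 7 clock genes, 56 pairs in all, with p-values adjusted over them. Wee1 followed Dbp, a gene that CLOCK and BMAL1 drive directly, by 2.82 ± 0.19 h and Per1 by 1.82 ± 0.55 h (adjusted p = 0.00138). It preceded Per2, with a difference of -0.84 ± 0.26 h (adjusted p = 0.00160). In the first and second cycle alone, Wee1 minus Per1 was 1.27 ± 0.70 h and 2.52 ± 0.75 h. Wee1 minus Per2 was then -0.55 ± 0.37 h and -0.62 ± 0.44 h. Cdk1 minus Per2 was 0.64 ± 0.93 h (adjusted p = 0.509), and Ccne2 followed Per2 by 1.48 ± 0.53 h (adjusted p = 0.00620). For Ccne2 the first cycle alone gave 1.14 ± 1.22 h and the second 0.87 ± 0.77 h.

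Cdkn1a and Cks2 peaked close to Arntl, the gene of BMAL1. The differences were -0.23 ± 0.50 h for Cdkn1a (adjusted p = 0.651) and 0.01 ± 0.38 h for Cks2 (adjusted p = 0.980). The 24 h component of Cks1b, which passed in its brighter set alone, preceded Dbp, with a difference of -1.49 ± 0.62 h (adjusted p = 0.0175). For this pair the first cycle alone gave -2.03 h and the second 0.02 h. Ccnd1 minus Dbp was -1.03 ± 0.98 h (adjusted p = 0.310), and Ing1 minus Per1 was 0.94 ± 0.75 h (adjusted p = 0.227). In order of time the 24 h peaks thus ran from Cks1b and Ccnd1 in the afternoon through Ing1 and Wee1 at dusk to Cdk1 and Ccne2 early in the night and Cdkn1a and Cks2 before dawn. The differences between neighbours in this order were not tested.

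Among the 12 h members, 10 pairs were compared, with Hspa5, a chaperone of the endoplasmic reticulum with a strong 12 h rhythm in liver, as the reference. Hspa5 peaked at CT2.70 ± 0.21 h and 12 h later. Ing1 peaked 0.98 ± 0.29 h before Cks1b (adjusted p = 7.75e-04) and 1.44 ± 0.41 h before Ccng1 (adjusted p = 6.90e-04). Without CT60 to CT65 the first of these differences was 0.63 ± 0.29 h, and it was 0.24 ± 0.39 h in the first cycle alone and 1.47 ± 0.47 h in the second alone. Cks1b minus Ccng1 was -0.46 ± 0.35 h (adjusted p = 0.190), with -1.30 ± 0.55 h and 0.40 ± 0.41 h in the single cycles. All 3 preceded Hspa5, with differences of -2.32 ± 0.30 h for Ing1, -1.33 ± 0.21 h for Cks1b and -0.87 ± 0.40 h for Ccng1 (adjusted p = 2.82e-14, 3.94e-10 and 0.0317). For Ccng1 the first cycle alone gave -0.0037 ± 0.58 h and the second -1.52 ± 0.46 h.

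Cdk2 stood apart from the others and opposite to Hspa5. Its 12 h peak lay -5.99 ± 0.31 h from that of Hspa5, about as far as 12 h waves can be from each other, and it lay -4.66 ± 0.30 h from Cks1b, -5.12 ± 0.33 h from Ccng1 and -3.68 ± 0.37 h from Ing1, each to the nearest crest. The adjusted p of these 4 differences was at most 2.76e-23. Over the 48 pools Cdk2 correlated at r = -0.603 with Ccng1 and -0.424 with Cks1b but at -0.129 with Ing1. Cks1b correlated at 0.623 with Ing1 and 0.474 with Ccng1, and Ccng1 at 0.283 with Ing1.

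**Figure D5:**
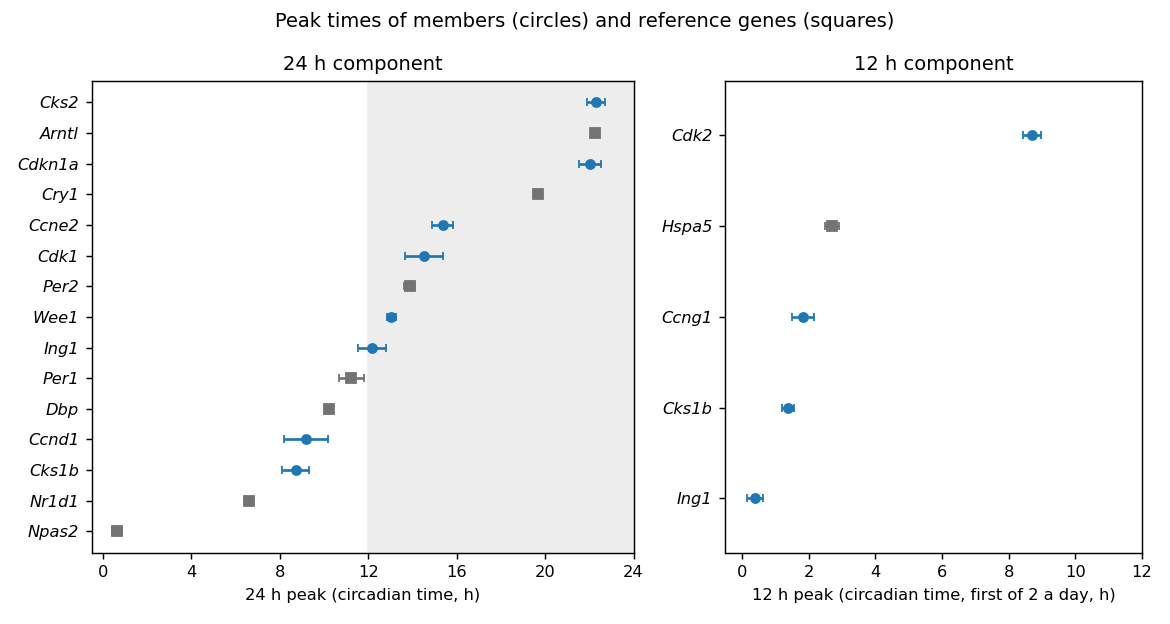
Fitted peak times in hours of circadian time (horizontal axes) with bars of ± 1 SE, for the 24 h component (left, grey for subjective night) and the 12 h component (right, the first of the 2 peaks a day), with circles for members and squares for clock genes or Hspa5. Cks2 and Cdkn1a lie beside Arntl, Wee1 lies between Per1 and Per2, and Cdk2 at CT8.71 lies opposite Hspa5 at CT2.70.

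Promoter windows of 250 bases before to 50 after the start site, from RefSeq (GRCm38.p6), were found for 7 of the 10 genes, with 12 windows in all because Cdkn1a and Ing1 have several starts. Wee1, Ccne2 and Ccnd1 were not matched. The windows of Cdk1 and Cks2, called with a 24 h period, and of Cks1b, Ccng1 and Cdk2, called with a 12 h period, are shown as the genes of either class with a single window. Capitals mark the CCAAT box (CCAAT), the cell cycle homology region (TTTGAA) and the E2F motif (TTTGGCGC or TTTCGCGC), each searched on both strands, and every sequence is written 5′ to 3′ on the gene's own strand.
Cdk1, chr10:69352863-69353162, minus strand: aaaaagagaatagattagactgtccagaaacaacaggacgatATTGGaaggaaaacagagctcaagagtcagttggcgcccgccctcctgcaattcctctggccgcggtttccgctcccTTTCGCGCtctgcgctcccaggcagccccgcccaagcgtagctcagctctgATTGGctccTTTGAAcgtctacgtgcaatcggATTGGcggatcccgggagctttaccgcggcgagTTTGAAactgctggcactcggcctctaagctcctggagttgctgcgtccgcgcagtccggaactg
Cks2, chr13:51644982-51645281, plus strand: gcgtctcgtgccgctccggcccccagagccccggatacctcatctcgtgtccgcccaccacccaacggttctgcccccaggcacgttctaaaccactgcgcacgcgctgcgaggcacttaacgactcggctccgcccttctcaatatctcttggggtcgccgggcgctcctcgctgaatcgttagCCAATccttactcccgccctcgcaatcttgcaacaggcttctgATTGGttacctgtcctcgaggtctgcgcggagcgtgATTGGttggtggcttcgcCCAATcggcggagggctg
Cks1b, chr3:89418242-89418541, minus strand: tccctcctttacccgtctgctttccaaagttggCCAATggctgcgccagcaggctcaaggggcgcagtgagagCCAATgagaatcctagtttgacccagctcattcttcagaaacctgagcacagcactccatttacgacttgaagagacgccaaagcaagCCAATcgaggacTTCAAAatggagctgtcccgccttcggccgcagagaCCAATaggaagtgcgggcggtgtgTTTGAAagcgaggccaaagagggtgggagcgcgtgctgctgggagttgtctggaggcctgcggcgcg
Ccng1, chr11:40755237-40755536, minus strand: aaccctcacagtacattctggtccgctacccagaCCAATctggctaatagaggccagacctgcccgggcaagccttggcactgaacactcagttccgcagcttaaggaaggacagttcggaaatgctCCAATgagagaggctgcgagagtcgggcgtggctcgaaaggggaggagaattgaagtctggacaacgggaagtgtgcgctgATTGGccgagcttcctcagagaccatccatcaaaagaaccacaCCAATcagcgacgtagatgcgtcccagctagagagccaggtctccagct
Cdk2, chr10:128705002-128705301, minus strand: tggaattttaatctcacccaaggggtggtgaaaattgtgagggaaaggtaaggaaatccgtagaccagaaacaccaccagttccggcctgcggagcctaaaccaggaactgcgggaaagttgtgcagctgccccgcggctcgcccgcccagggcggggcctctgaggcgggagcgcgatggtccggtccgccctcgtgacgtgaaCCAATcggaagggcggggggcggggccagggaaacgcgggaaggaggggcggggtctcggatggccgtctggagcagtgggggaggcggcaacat

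The CCAAT box occurred 4 times each in the windows of Cks2, Cks1b and Ccng1, 3 times in that of Cdk1 and 1 time in that of Cdk2, and 37.4% of all 32851 windows hold at least 1. Cdk1 and Cks1b each had 2 copies of TTTGAA, which 17.9% of windows hold. Cdk1 had 1 E2F match, which 0.813% of windows hold. The CCAAT box and TTTGAA thus occurred in windows of both classes, and the E2F match in that of Cdk1 alone. Of the windows not shown, both of Cdkn1a held none of the 3 motifs, and of the 5 of Ing1, 4 held TTTGAA and 3 CCAAT. The Ing1 windows that start at 11555813 and 11555815 overlap almost wholly, so their matches are the same sites. Of the clock motifs searched on both strands, the E-box (CACGTG, in 7.15% of all windows), the D-box (TTATGTAA or TTACGTAA, in 1.06%) and the core bound by ROR and REV-ERB (AGGTCA, in 16.3%) were in none of the 12 windows, and CACGTT (in 4.68%) was in that of Cks2 and in 1 of Ing1. The core TGACGTGG of the unfolded protein response (in 0.676%) was in none. A match or its absence in these windows says nothing on whether a factor binds.

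For each member called by both tests, the 3 genes with the highest Pearson r over the 48 detrended pools were listed, as a description over arrays that the genes share. Wee1 was most like Usp2, a ubiquitin protease (r = 0.935), Gys2, the liver glycogen synthase (0.920), and Coq10b (0.917). Cks2 was most like Pnp (0.851), Bet1 (0.837) and Lrfn3 (0.832), and Ccne2 like Gde1 (0.817), Ndufaf6 (0.802) and Dnajb6 (0.797). Cks1b was most like Ik (0.853) and the Golgi genes Arfgap3 (0.826) and Stx5a (0.792), which were all called with a 12 h period.

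For Cdkn1a they were Ppard (0.653), Chka (0.634) and Cdcp1 (0.628), and for Cdk1 they were Ndufaf6 (0.686), Ccne2 (0.670) and Fh1 (0.654). Cdk2 was most like Klhl21 (0.730), Lpcat3 (0.681) and Fbxl20 (0.678). Ccng1 was most like Yme1l1 (0.814), Rbis (0.812) and Cfhr2 (0.796) and Ing1 like Rexo4 (0.750), Tada2b (0.741) and Togaram1 (0.736), and of these 6 only Togaram1 was called rhythmic, with a 12 h period.

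The wider cell cycle network was read from 10 lists of 147 genes, of which 143 were measured and 34 had a median under 100. Both tests called 24 of the 143 with a 24 h period, or 16.8% against 14.2% of all genes, and 4 with a 12 h period, or 2.80% against 1.14%. By limma 73 had a 24 h component, where 52.7% of all genes did, and 20 a 12 h component, where 7.11% did. The median 24 h amplitude was 0.10 over these genes and 0.06 over all genes.

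Among other cyclins 2 of 17 were called with a 24 h period, Ccng2 (peak CT23.1, amplitude 0.65 ± 0.065) and Ccnf (CT18.9, 0.59 ± 0.062). Of 16 other CDKs 5 were called with a 24 h period, among them Cdk8 of the Mediator (CT6.91, 0.29 ± 0.032), Cdk17 (CT3.45), Cdk6 (CT7.35) and Cdk12 (CT5.89), and all 4 peaked in the subjective day. Cdk7, the kinase that activates other CDKs, was called with a 12 h period and peaked at CT1.25 with an amplitude of 0.23 ± 0.051, where Cks1b peaked at CT1.37 and Cdk2 at CT8.71. None of 7 other CDK inhibitors was called by both tests, although limma gave 4 a 24 h component and 1 a 12 h component. Of 9 genes that switch CDK phosphorylation, 1 was called, the phosphatase Cdc14b (CT4.03, 0.41 ± 0.043), and 6 had a median under 100.

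In the Rb and E2F list 5 of 15 were called with a 24 h period, among them Tfdp2 (CT11.0, 0.38 ± 0.039), Lin54 (CT6.05), Rb1 (CT5.75) and Tfdp1 (CT14.7). Among 22 ubiquitin ligase genes Cul1, Skp1a and Anapc7 were called with a 24 h period, and Anapc4 and Anapc10, subunits of the anaphase-promoting complex, with a 12 h period and peaks at CT3.74 and CT1.98. Of 16 p53 genes, Gadd45a (CT9.82, 0.64 ± 0.097) and Fas (CT20.0, 0.34 ± 0.038) were called with a 24 h period and Trp53inp1 with an 8 h period. Of 14 ING partners, Rbbp7, Sin3b and Ing2 were called with a 24 h period, with peaks at CT8.37, CT12.2 and CT4.85, and Hdac1, a deacetylase of the Ing1 complex, with a 12 h period and a peak at CT2.77. Of 18 mitosis genes, 10 had a median under 100 and 1, the centromere histone Cenpa, was called (CT7.02, 0.27 ± 0.042). Of 9 growth arrest genes, Btg1 (CT23.7, 0.60 ± 0.052) and Tob2 (CT9.96, 0.60 ± 0.082) were called with a 24 h period.

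The mean level of 7 of the 22 member probe sets differed between the cycles, where 53.4% of all probe sets did, most of them higher in the second cycle (19057 of 24100). With quantile normalization 5 member sets and 7823 of the 45101 sets passed, so that where the members stood against the array depended on the scaling. Without the block of hours 5 member sets passed, and those of Cdkn1a and Ccne2 were lost. Of the members, 6 sets were higher, namely Ccne2, 2 of Ccng1 and the dim sets of Cdk2 and Ing1, and 1 of Cdkn1a was lower. Wee1, Cdk1, Cks1b, Cks2 and Ccnd1 had no set that passed, with differences from -0.12 to 0.16 in log2 units.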

How the data were processed

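RNA of 48 hourly liver pools was hybridised to Affymetrix arrays. The authors deposited 1 linear intensity per probe set and array. Their methods describe GCRMA, while the labels name MAS5 without a version, and which of them made the deposited intensities was not settled. The precision is limited by the number of arrays, 1 for each hour. Probe sets were named through the platform's annotation (34958 with 1 symbol, 932 with several, 9211 with none). In that annotation none of the member probe sets was shared with another gene. The brightest sets of Cks2 and Ing1 still have the suffix of probes that can match transcripts of more than a single gene. The probe set of highest mean log2 intensity stood for a gene.

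Fisher's G-test (23 Fourier frequencies) and a cosine fit after the COSOPT method (every 0.1 h from 4 to 30 h, linear trend removed, 1000 scramblings) were run on log2 intensity of all probe sets, with Storey q-values. A call needed q under 0.05 in both, and windows were 20 to 30, 10 to 14 and 7 to 9 h. limma 3.58.1 (R 4.3.3) gave harmonic amplitudes, peak times, the interaction with cycle and the level difference between cycles (hour of the cycle as block), with Benjamini-Hochberg adjustment over all probe sets. Differences of amplitude have delta-method intervals. Differences of peak time have standard errors that use the residual correlation of the probe sets and two-sided normal p-values adjusted over the pairs. Python 3.11.15, numpy 2.4.6 and scipy 1.17.1 were used for the rest, and the calls of 24 and 12 h periods and components were tested on simulated data. Named genes were the members, at most 4 called genes of each list and window, taken by G-test p, the 3 nearest genes of each called member, and clock genes and Hspa5 as references. The members and lists were chosen with earlier results of these data known. Alternatives were linear values, quantile normalization, Benjamini-Hochberg q, the brighter probe sets alone, other trend and harmonic terms, leaving out CT60 to CT65 or single pools, and each cycle alone.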

Additional observations from a re-analysis of the deposited data

Results flagged for a closer look

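The daily course of Cdkn1a differed between the cycles by the limma test of the interaction itself, with an adjusted p of 1.27e-05 for probe set 1421679_a_at and 0.00704 for 1424638_at. The first pulse of 1421679_a_at reached 696.0 at CT21 and the second 216.0 at CT47, and the pulses of 1424638_at reached 382.9 and 222.5.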

How the results depend on the processing

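The count of 24 h calls stayed between 7 and 9 of 22 and that of 12 h calls at 5 or 6 under every alternative run on both tests. The sets behind the 24 h count changed. With the trend removed before the G-test, Cdk1 was lost and Ing1 1454534_at and 1433267_at, under 100 in all 48 pools, were gained. The array count of 24 h calls was 4499 in the main setting, 3874 with Benjamini-Hochberg adjustment and 6960 with the trend removed. The single 8 h call, Ccng1 1450016_at, became 0 on linear values, with quantile normalization, with Benjamini-Hochberg adjustment and with the trend removed before the G-test. The 8 h components by limma fell from 2 to 1 on linear values, with quantile normalization and without CT60 to CT65, and ranged from 1 to 2 when single pools were left out, and the probe set lost was Ing1 1448496_a_at. The count of probe sets whose rhythm differed between the cycles was 1 without CT60 to CT65. The count whose level differed was 4 without CT60 to CT65 and 3 among the brighter probe sets, where 4 dim sets were not tested. Without CT60 to CT65, 14 probe sets had a 24 h component and 8 a 12 h component, the 12 h component of Wee1 among those lost. Of the 24 h minus 12 h amplitudes whose interval excluded 0, those of Ccnd1 1448698_at (-0.0201) and the dim Ing1 1454534_at (-0.0022) reversed in the first cycle alone. Several whose interval spanned 0 changed sign in a single cycle, Ing1 1416860_s_at (0.04) and the dim Cdk2 1447617_at (-0.0032) among them, and the 24 h peak of Cks1b minus Dbp was 0.0238 h in the second cycle alone. With single pools left out, 15 to 18 probe sets had a 24 h component and 8 or 9 a 12 h component. The causes were not tested. With 24 pools in a cycle, single cycles gave wide standard errors. The pools form 1 group, and the only pairing was of the same hours in the level difference between cycles, where 5 probe sets passed without that block.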
